A study of Mus musculus with 7 samples.

Results

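Cd4 was set against 9 other genes that define T cells (Cd8a, Cd3d, Cd3e, Cd3g, Cd247, Cd2, Cd5, Lck and Zap70), to ask whether its fall in the PB-NICD prostate was shared by them. Every non-control probe whose transcript accession maps to 1 of these 10 genes was taken. That gave 13 probes for all 10 genes, of 41174 non-control probes on the array, of which 24375 could be given 1 gene symbol and stood for 17016 genes. Cd4 was chosen by its measured log2 ratio, which was low in PB-NICD samples, so its values are given as a description with no test. The other 9 were chosen for what they are, and their adjusted p-values come from the limma fit over all 21282 probes that could be tested.

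Gene expression was measured in prostate RNA of C57Bl/6 mice on 2-colour Agilent arrays, 1 array per sample. The 3 PB-NICD samples came from ARR2PB-Cre;ROSA(N1IC) mice, in which Cre under the prostate promoter ARR2PB turns on the Notch1 intracellular domain and prostatic intraepithelial neoplasia develops. The 4 controls were ROSA(N1IC) mice described as NICD wild-type, so the ROSA(N1IC) allele is named for both groups and the Cre transgene for PB-NICD alone. Ages are not given in the sources used here, and nothing says that the samples came from separate animals, so p-values measure the spread between these samples. The sample was read in red and a universal mouse reference RNA in green on every array. All values below are log2 ratios of red over green after normalization within the array unless a signal is named, and changes are means of PB-NICD minus means of control arrays.

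T cells recognise antigen through the T-cell receptor, whose signal is carried by the CD3 chains (Cd3d, Cd3e, Cd3g) and the zeta chain (Cd247). The coreceptors CD4 and CD8 bind class II and class I MHC molecules and bring the kinase Lck to the receptor, after which Zap70 is recruited to the phosphorylated chains. CD4 marks helper T cells, and in mice it is also found on some dendritic cells. In bulk tissue, fewer cells of a type and less RNA per cell cannot be told apart.

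The arrays differed in brightness. Median red signal ran between 69 and 107 over a background of 53 to 55, and median green signal between 325.5 and 423 over 24 to 27. In red, 44.8% to 66.8% of probes exceeded the background clearly by the scanner software (well above background), no probe was saturated, and 6.02% to 17.8% of spots were marked as outliers by the scanner software and left out. The array labelled PB-NICD 1 stood apart: its ratios correlated with those of the other arrays at 0.762 to 0.818 across 13649 probes, beside 0.809 to 0.959 among the other 6 arrays. Notch1, the gene switched on by the transgene, had ratios of 2.63 and 2.74 for the samples PB-NICD 2 and 3, against 0.05, 0.30, 0.76 and 0.67 on control 1 to 4. On the array labelled PB-NICD 1 the Notch1 spot was an outlier, and read 0.64 if kept, which lies within the control range. The sources used here do not say whether the Notch1 probe lies within the part that the transgene expresses. Sbp, which encodes a secreted prostate protein, was also uneven among the PB-NICD samples, with ratios of 0.54, 4.75 and 9.44 for the samples labelled PB-NICD 1 to 3, against 11.49, 10.38, 10.13 and 9.50 on control 1 to 4. Results are therefore given with and without the array labelled PB-NICD 1.

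Cd4 was read by 1 probe, A_52_P383089, printed in 10 spots on each array. Its log2 ratio was -0.27, 0.01 and 1.17 on the arrays labelled PB-NICD 1 to 3, against 3.87, 3.86, 4.18 and 4.04 on control 1 to 4. The controls lay close together and far above all 3 PB-NICD arrays, among which PB-NICD 3 was highest; such a separation downward was seen in 13.7% of all tested probes. The means were 0.30 ± 0.76 in PB-NICD (SD, n = 3) and 3.99 ± 0.15 in control (SD, n = 4). The change was -3.69 ± 0.30 (SE), which is 12.86-fold lower in PB-NICD. It was the 12th most negative change of 11824 genes, each read by its brightest probe. In controls its ratio ranked 65th from the top, so control prostate gave Cd4 one of the higher ratios to the mixed reference on the array.

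The single spots showed the same separation. With outlier spots included, the highest of the spots on the PB-NICD arrays had a log2 ratio of 1.43, and the lowest on the control arrays 3.61. The SD between the spots used on 1 array was 0.09 to 0.24. Spots on an array share 1 labelled sample and are not replicates of the condition.

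**Figure D1:**
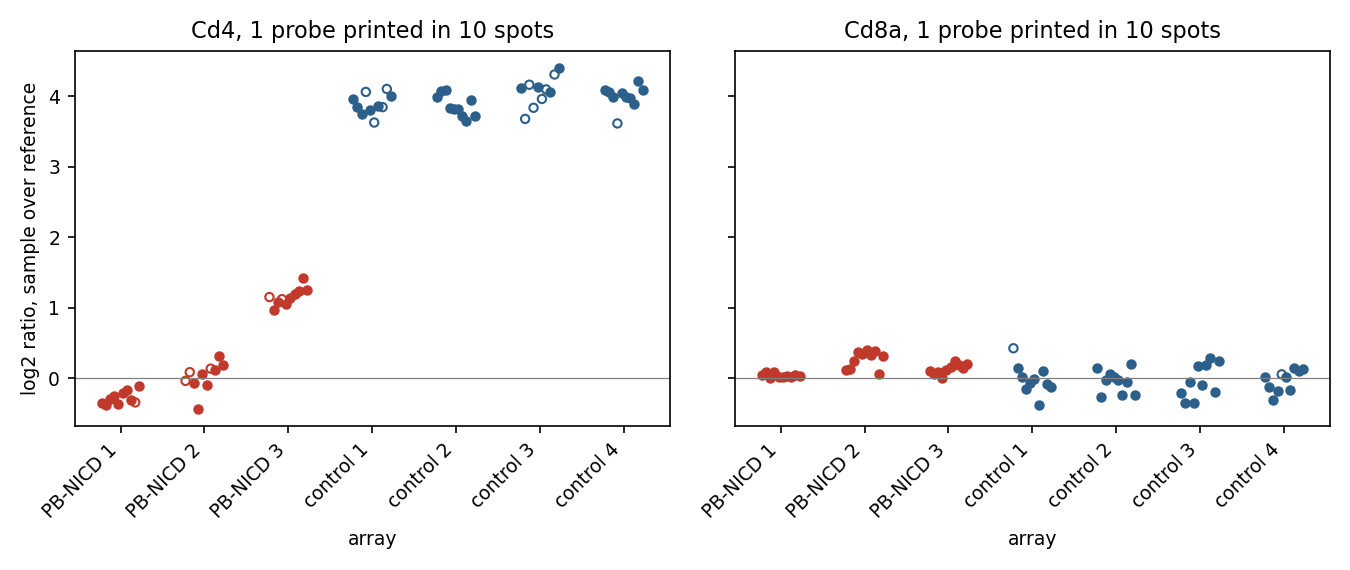
Log2 ratio of sample over reference (vertical axis) for each of the 10 spots of Cd4 (left) and of the 10-spot probe of Cd8a (right) on the 3 PB-NICD arrays (red) and 4 control arrays (blue). Open circles are outlier spots, which were left out of the means; for Cd4 no PB-NICD spot was above 1.43 and no control spot below 3.61, while the Cd8a spots of both groups lay near 0.

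The difference was in the sample channel. The mean red signal of Cd4 was 1024, 1682 and 3702 on the arrays labelled PB-NICD 1 to 3, against 7052, 7899, 22130 and 21330 on control 1 to 4. Its green signal, from the same reference RNA on every array, was 6525, 8880 and 9637 on the PB-NICD arrays, against 8413, 8754, 11450 and 12430 on the controls. The red signals of the groups did not overlap and the green signals did. Cd4 was well above background in red on all 7 arrays, so its low ratio in PB-NICD was a measured level and not a floor.

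The 7 arrays lay on 2 slides that each held both groups, slide 1 with the array labelled PB-NICD 1 and control 1 and 2, and slide 2 with the rest. For Cd4 the slide 1 arrays alone gave a change of -4.14, the slide 2 arrays alone one of -3.52, and slide as a fixed block one of -3.77. Without the array labelled PB-NICD 1 it was -3.40 ± 0.27 (SE).

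Of the 9 other T-cell genes, 4 could be tested, and none of the 4 was called at an adjusted p under 0.05 in either direction. At the same threshold 2.33% of all tested probes were called, 1.95% lower and 0.371% higher. Of these 4 genes, none had an unadjusted p under 0.05. Without the array labelled PB-NICD 1, 0 of the 4 were called as well (limma, Benjamini-Hochberg). All but Cd3g of the 4 were dim in the sample channel.

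The CD8 alpha chain, coreceptor of cytotoxic T cells, was read best by a probe that was likewise printed in 10 spots (A_52_P443334). Cd8a had a log2 ratio of 0.04, 0.27 and 0.13 on the arrays labelled PB-NICD 1 to 3, against -0.06, -0.04, -0.04 and -0.04 on control 1 to 4. All 3 PB-NICD arrays were slightly above all controls, which held for 4.91% of all tested probes. The change of Cd8a was 0.19 ± 0.12 (SE; 95% interval -0.07 to 0.45; limma adjusted p = 0.543). Its signal was dim, at 109, 130.2 and 114.8 in red on the PB-NICD arrays, against 69.56, 71.3, 86.35 and 84.94 on the controls, and it was not well above background on control 2. In the authors' deposited value table the Cd8a change was 0.26, with an adjusted p of 0.0377 by limma. With those values, 1981 probes were called higher and 2896 lower of 24843, so a call was common there. The other Cd8a probes, A_51_P345121 and A_52_P150547, were well above background in red on 1 and 0 arrays and were not tested.

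Among the chains of the receptor complex, Cd3g was well above background on every array. Its log2 ratio was -1.0, -1.41 and -0.96 on the arrays labelled PB-NICD 1 to 3, against -1.09, -1.10, -1.27 and -1.04 on control 1 to 4. The groups overlapped, and the change of 0.00 ± 0.15 (SE) had a 95% interval of -0.33 to 0.33 (limma adjusted p = 0.998).

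Cd3e was the brightest of the other members in red, and 3 of its 7 spots were outliers, so it had too few values for the test. With outlier spots kept, the log2 ratio of Cd3e was -0.84, -0.39 and -0.41 on the arrays labelled PB-NICD 1 to 3, against -0.44, -0.50, -0.49 and -0.60 on control 1 to 4. The groups overlapped, with the array labelled PB-NICD 1 the lowest. In the fit that kept outlier spots, over 24843 probes of which 729 were called, the change of Cd3e was -0.04 ± 0.14 (SE; 95% interval -0.36 to 0.28; limma adjusted p = 0.946).

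Cd247 was measured near background. The better of its probes, A_52_P173555, was well above background in red on 4 arrays, with log2 ratios of 0.00, 0.04 and 0.06 on the arrays labelled PB-NICD 1 to 3, against -0.33, 0.00 and 0.20 on control 1 to 3 and an outlier spot on control 4. The groups overlapped and the change of Cd247 was 0.07 ± 0.16 (SE; limma adjusted p = 0.907). Its other probe was well above background in red on 0 arrays. The 1 probe of Cd3d was so on 1 array, control 4, and was not tested. The log2 ratio of Cd3d was 0.05, -0.75 and 0.07 on the arrays labelled PB-NICD 1 to 3. On control 1 to 4 it was 0.42, -0.30, -0.21 and 0.22. The groups overlapped, and the change, given with no test, was -0.24 ± 0.24 (SE).

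Of the surface molecules, Cd5, a receptor that tempers T-cell receptor signalling, was well above background in red on all 7 arrays, and 5 of its 7 spots were outliers. With these kept, the log2 ratio of Cd5 was -0.52, -0.31 and -0.22 on the arrays labelled PB-NICD 1 to 3, against -0.08, -0.31, -0.50 and -0.34 on control 1 to 4. The groups overlapped and the change of Cd5 was -0.04 ± 0.14 (SE; 95% interval -0.36 to 0.27; limma adjusted p = 0.941 with outlier spots kept). The adhesion molecule Cd2 was well above background in red on 2 arrays and was not tested. The log2 ratio of Cd2 was -0.02, -0.03 and -0.27 on the arrays labelled PB-NICD 1 to 3. On control 1 to 4 it was 0.07, 0.15, -0.29 and 0.05. The groups overlapped, and the change, given with no test, was -0.10 ± 0.14 (SE). Its red signal was 70 to 80.5 on PB-NICD arrays, against 61 to 71 on controls. These signals are not adjusted for array brightness, with a median red signal of 88 to 107 on PB-NICD arrays and 69 to 87.5 on controls.

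Of the kinases, Lck had a log2 ratio of -0.01, -0.29 and -0.15 on the arrays labelled PB-NICD 1 to 3, against -0.26, -0.43 and -0.16 on control 1, 2 and 4, with an outlier spot on control 3. The groups overlapped, and the change of Lck was 0.14 ± 0.15 (SE; 95% interval -0.20 to 0.47; limma adjusted p = 0.777). Zap70 was well above background in red on 1 array, PB-NICD 3, and was not tested. The log2 ratio of Zap70 was -0.06, -0.72 and -0.48 on the arrays labelled PB-NICD 1 to 3. On control 1 to 4 it was -0.06, -0.16, -0.43 and -0.29. The groups overlapped, and the change, given with no test, was -0.19 ± 0.17 (SE). Its red signal, not adjusted for array brightness, was 65 to 78 on PB-NICD arrays, against 59 to 68.5 on controls.

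**Figure D2:**
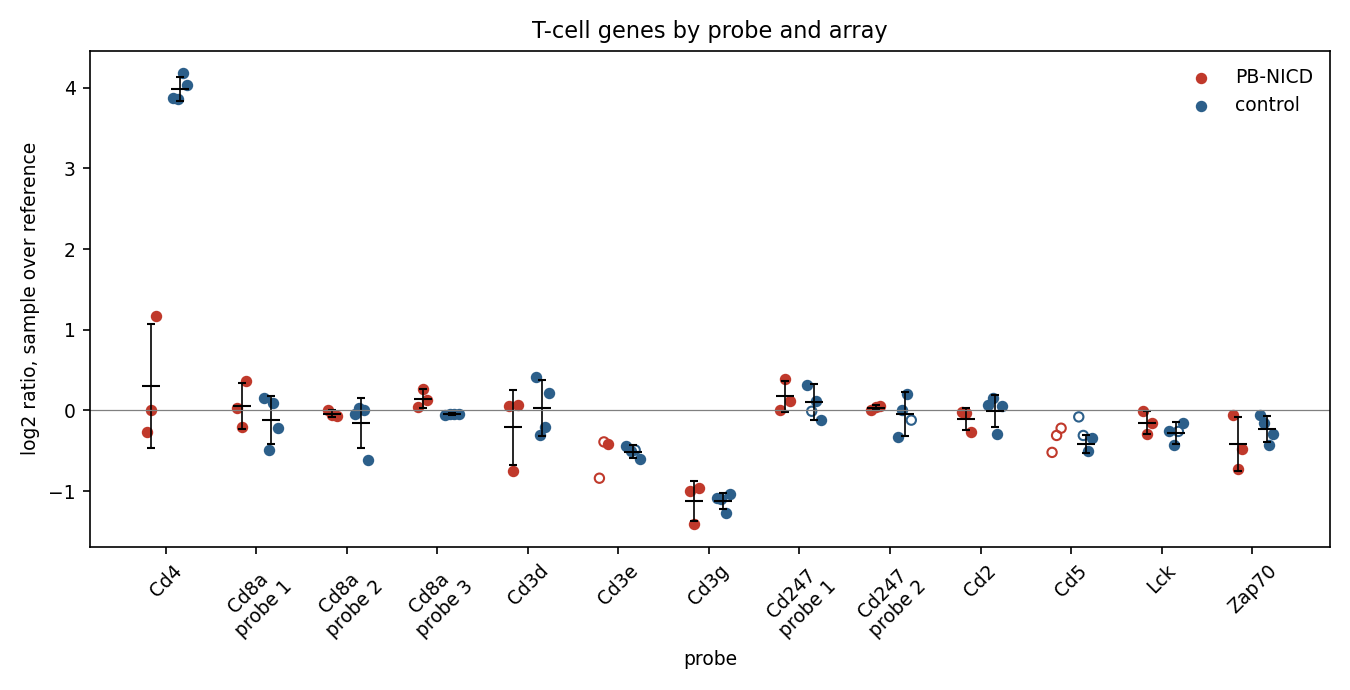
Log2 ratio of sample over reference (vertical axis) of the 13 probes of the T-cell genes, with PB-NICD arrays (red) left of control arrays (blue) for each probe. Points are arrays, bars are the mean ± SD of the values used, and open circles are values of outlier spots that were left out; Cd4 is the 1 probe whose groups lie far apart, at a mean of 0.30 in PB-NICD and 3.99 in control.

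How low a change could be measured depended on how bright a gene was in controls. It was taken as the change that red spots at their local background on the PB-NICD arrays would give after the same processing, with outlier spots kept. This limit was -7.90 for Cd4, -5.11 for Cd3e, -3.02 for Cd5 and -1.77 for Cd3g. Cd3e was thus the 1 other member in which a change as low as that of Cd4 could have been measured. It was at -0.04 with outlier spots kept, as was Cd5. With these spots left out, Cd3e had a value on 1 PB-NICD array and Cd5 on 0. For Cd8a by its 10-spot probe, Lck and Cd247 by its better probe the limit was -0.80, -0.77 and -0.47, so their changes say nothing of a fall of the size of that of Cd4. For Cd3d, Cd2 and Zap70 the limit was -0.52 to -0.59 and no change was tested. In the red channel 4 genes (Cd4, Cd3e, Cd3g and Cd5) were well above background on all 7 arrays, 3 genes on 3 to 6 arrays and 3 genes on 1 or 2 arrays. In the reference channel 9 genes were well above background on all 7 arrays and the other, Cd3d, on 6 arrays. Over the arrays, the ratio of Cd4 had a Pearson correlation of 0.05 with Cd3g and -0.81 with Cd8a (n = 7), and of -0.16 with Cd247 and -0.51 with Lck (n = 6), as a description of arrays that form separate groups for Cd4.

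**Figure D3:**
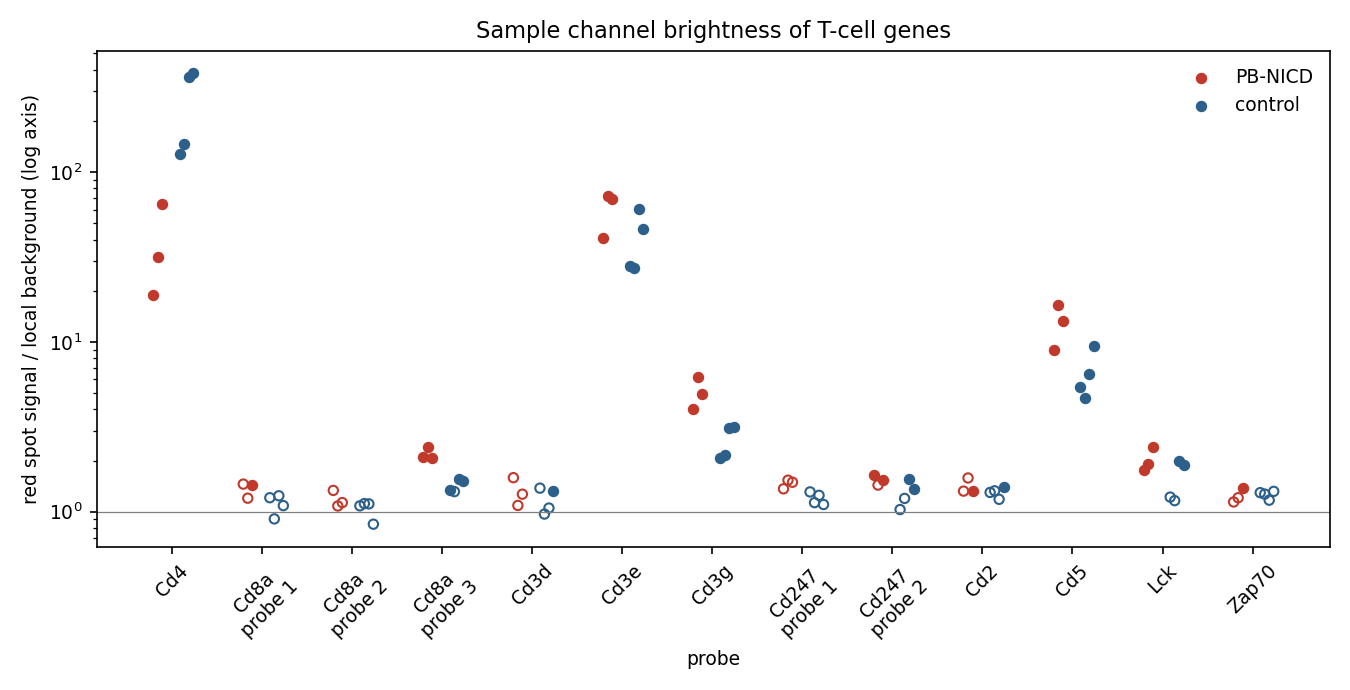
Red spot signal divided by local background (vertical log axis, ratio without unit) of the 13 probes, with PB-NICD arrays (red) left of control arrays (blue) and outlier spots included. Filled points were well above background by the scanner software and open points were not; Cd4, Cd3e, Cd3g and Cd5 were filled on all 7 arrays, while Cd3d, Cd2 and Zap70 were filled on 1 or 2.

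Other T-cell genes were taken from a list of 40, of which 38 had a probe and 17 were tested. None was called in either direction, against 2.88% of 11824 genes (2.46% lower and 0.423% higher), and their median change was -0.075, beside -0.068 over all tested genes. The lowest measurable change was not computed for this or the other immune lists. It is thus not known in which genes a fall of the size of that of Cd4 could have shown. Some were dim: Prkcq was well above background in red on 2 PB-NICD and 2 control arrays. Where all 7 arrays had to be well above background, 9 genes of the list were tested and 0 called. That fit called 77 probes higher and 483 lower of 14174. In this list 3 genes had an unadjusted p under 0.05, all lower (17.6%, beside 16.8% of all tested genes). They were the transcription factor Lef1 at -0.43 ± 0.14 (SE; limma adjusted p = 0.161), Cd6, a receptor related to Cd5, at -0.35 ± 0.12 (adjusted p = 0.197) and the surface protein Thy1 at -0.35 ± 0.12 (adjusted p = 0.211). Cd96 was at 0.37 ± 0.16 (adjusted p = 0.363). In bulk tissue the cells that gave these RNAs were not identified, and they need not be T cells.

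Lef1 had ratios of -0.15, -0.50 and -0.52 on the arrays labelled PB-NICD 1 to 3. On control 1 to 4 they were -0.04, 0.11, -0.01 and 0.10, without overlap. In this list 3 of 17 tested genes lay fully below the controls and 2 above, against 16.3% and 4.76% of all tested genes. Without the array labelled PB-NICD 1, 1 of 14 tested genes of the list was called, Lef1, at -0.55 (limma adjusted p = 0.028). The median of the list was then -0.18, and 639 probes were called higher and 611 lower of 17718. Of the 21 listed genes with a probe that were not tested, 18 were too dim, among them Foxp3, Ctla4, Cd28 and Il7r, and 3 lacked values.

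Of genes that leukocytes share, 15 of 16 were tested, with a median change of 0.069 and none called. Dock2, which links chemokine receptors to the cytoskeleton, was at 0.55 ± 0.16 (SE; limma adjusted p = 0.163) on 2 PB-NICD and 3 control arrays, and Cd52 at -0.62 ± 0.45 (adjusted p = 0.639). Coro1a was at -0.23 (adjusted p = 0.535) and Cd53 at -0.28 (adjusted p = 0.673). The median of this list was -0.11 without the array labelled PB-NICD 1.

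Markers of macrophages and dendritic cells had 15 of 24 genes tested, none called and a median change of -0.055. Zbtb46, a transcription factor of classical dendritic cells, was at -0.39 ± 0.16 (SE; limma adjusted p = 0.304). The receptor Flt3 was at 0.23, Fcer1g at -0.16 and Itgam at -0.14, with adjusted p-values of 0.674, 0.694 and 0.702. Without the array labelled PB-NICD 1, 1 of 13 tested genes of this list was called, C1qa, at 0.75 (limma adjusted p = 0.034). That fit called 639 probes higher and 611 lower of 17718. C1qa was named after its values were seen. With all arrays C1qa was at 0.11 ± 0.43 (SE; limma adjusted p = 0.951). Its ratio was 0.65 on the array labelled PB-NICD 1, below the 1.69 to 1.96 of the controls. On PB-NICD 2 and 3 it was 2.29 and 2.85, above them.

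Markers of B cells and NK cells had 8 of 12 genes tested, none called and a median change of -0.063, or -0.16 without the array labelled PB-NICD 1. Pax5 was at -0.33, Ncr1 at 0.25, Klrb1c at 0.12 and Ms4a1 at -0.18, and the lowest limma adjusted p was 0.496, for Pax5. Of the genes of class II presentation, whose products CD4 binds or which load them, 10 of 11 were tested and none was called. Their median change was 0.025, or -0.04 without the array labelled PB-NICD 1. Ifi30, a reductase of the antigen-loading compartment, had ratios of 0.83, 1.19 and 1.26 on the arrays labelled PB-NICD 1 to 3, against 1.78, 1.63, 1.83 and 1.52 on control 1 to 4. These did not overlap. In 1 of the 10 tested genes of the list all PB-NICD arrays lay below all controls, against 16.3% of all tested genes. The change of Ifi30 was -0.60 ± 0.15 (SE, limma adjusted p = 0.0811). The fit with slide as a fixed block called 232 probes higher and 1500 lower of 21282. Ifi30 was among them, at -0.62 (limma adjusted p = 0.024). H2-DMb1 was at 0.24, Cd74 at 0.09 and H2-Oa at 0.07.

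As a check of the tissue, the prostate gene Pbsn had ratios of 9.06, 9.81 and 10.15 on the arrays labelled PB-NICD 1 to 3, against 11.70, 11.29, 10.06 and 10.44 on control 1 to 4. Of 12 prostate markers 10 were tested and none was called. Their median change was -0.24, or -0.12 without the array labelled PB-NICD 1 and -0.60 without PB-NICD 2. Sbp was at -5.46 ± 1.63 (SE; limma adjusted p = 0.139), Pbsn at -1.20 ± 0.40 (adjusted p = 0.186) and Krt18 at -0.50 ± 0.17 (adjusted p = 0.242). These missed the threshold. Sbp was called with slide as a fixed block, at -5.79 (limma adjusted p = 0.0355), and without PB-NICD 3, at -7.73 (adjusted p = 0.00993). The fixed block called 232 probes higher and 1500 lower of 21282. The fit without PB-NICD 3 called 36 higher and 339 lower of 16824. The part of the prostate markers in the change of Cd4 was not tested.

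**Figure D4:**
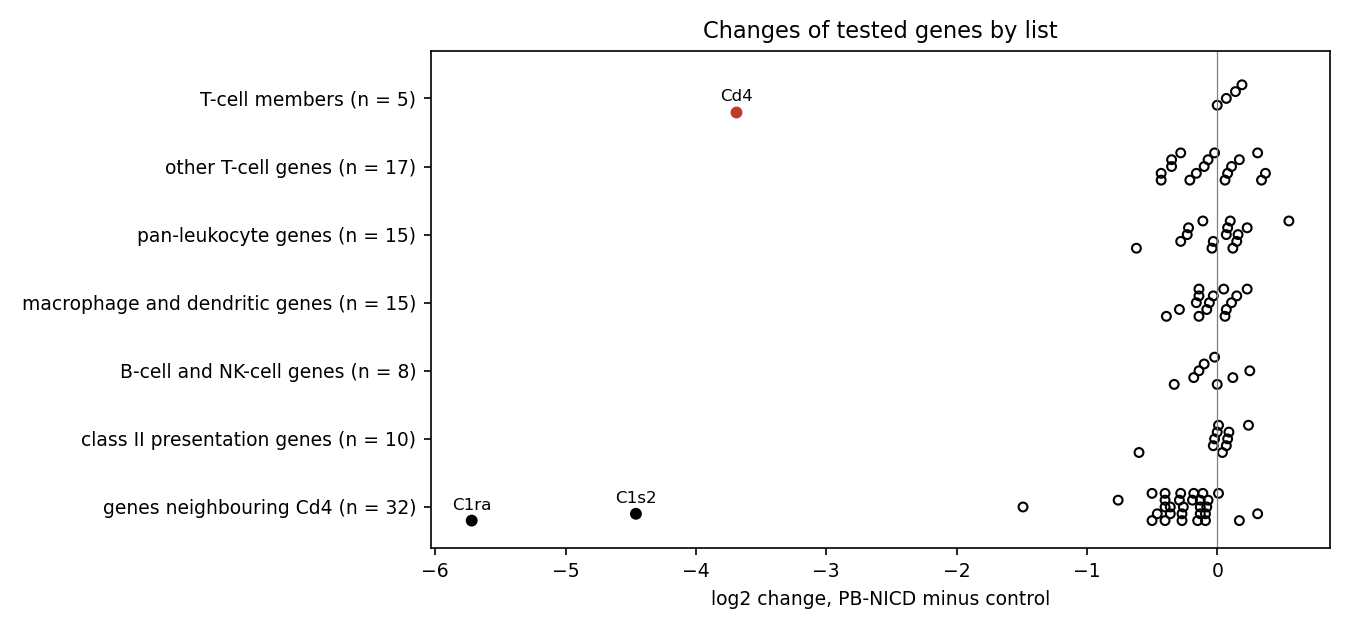
Log2 change, PB-NICD minus control (horizontal axis), of every tested gene by list, with the number tested beside each name. Filled black points were called at an adjusted p under 0.05, open points were not, and Cd4 (red) is shown without a test; outside Cd4 the called genes are C1ra and C1s2, both among the chromosomal neighbours of Cd4.

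The 20 protein-coding genes on each side of Cd4, in the order of the RefSeq table, were taken next. Of these 40 genes 37 had a probe and 32 were tested. C1ra and C1s2 fell, and no other neighbour was called. That is 2 of 32, both lower, against 2.46% of all tested genes called lower, and both were known from earlier results to be low in PB-NICD. C1ra and C1s2 encode proteases of the first complement component.

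C1ra had log2 ratios of 0.02, -0.11 and 1.71 on the arrays labelled PB-NICD 1 to 3, against 6.00, 5.95, 6.63 and 6.46 on control 1 to 4. It fell by 5.72 ± 0.41 (SE; limma adjusted p = 0.000265). C1s2 had ratios of 0.01, 0.31 and 1.31 on the arrays labelled PB-NICD 1 to 3, against 4.80, 5.05, 5.24 and 4.94 on control 1 to 4, and fell by 4.46 ± 0.28 (adjusted p = 0.000124). C1s2 was well above background in red on 2 of the 3 PB-NICD arrays and on all 4 controls, so part of its PB-NICD level lies near the background, and it was not tested where all 7 arrays had to be well above background. Without the array labelled PB-NICD 1 the changes were -5.46 for C1ra and -4.20 for C1s2, both called. For both genes the groups lay far apart, and as with Cd4 PB-NICD 3 was the highest of the PB-NICD arrays. Mouse C1ra and C1s2 have near-identical copies, C1rb and C1s1, in the same cluster, and the probes may not tell the copies apart. C1s1 has 2 probes. The tested one was at -0.07, and the other had outlier spots on 3 arrays and was at -2.37 with these kept (limma adjusted p = 0.000373). C1s1 was named after its values were seen.

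The tested genes next to Cd4 did not pass the threshold. Gpr162, its neighbour on the side of the complement genes, was at -0.27 ± 0.13 (SE; limma adjusted p = 0.406). On the other side Lag3, a receptor related to CD4 that also binds class II molecules, was well above background in red on 0 arrays. The gene after it, Ptms, was at 0.31 ± 0.16 (adjusted p = 0.451), with its other probe at -0.19.

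Of the 32 tested neighbours, 29 had a negative change, beside 7261 of all 11824 tested genes. The median of the neighbours was -0.273, beside -0.068 over all genes, and -0.22 without the array labelled PB-NICD 1. In 11 of the 32 all PB-NICD arrays lay below all controls, against 16.3% of all tested genes, and in 0 above, against 4.76%. An unadjusted p under 0.05 was found for 11 of the 32 (34.4%), beside 16.8% of all genes. With each array centred on its median in place of loess, the median of the neighbours was 0.06 and that of all genes 0.11. Lpcat3 was at -0.76 ± 0.18 (limma adjusted p = 0.0769) and Acrbp at -1.49 ± 0.41 (adjusted p = 0.121). Both were named after their values were seen. They were called with slide as a fixed block, at -0.82 and -1.86 (limma adjusted p = 0.00384 and 0.000519). That fit called 232 probes higher and 1500 lower of 21282. The other tested probe of Acrbp was at -0.47. The ROSA26 locus, which carries the ROSA(N1IC) allele, lies on the chromosome of Cd4 in the RefSeq table, and the part of DNA linked to that allele in these values was not tested.

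**Figure D5:**
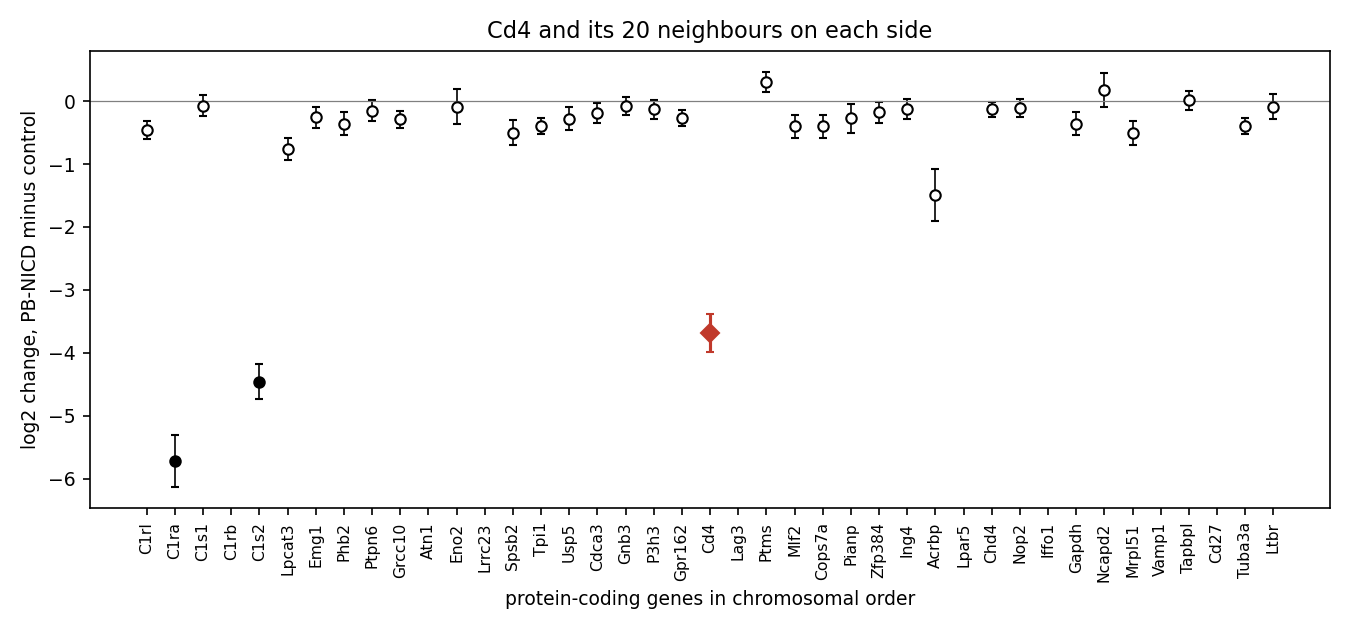
Log2 change, PB-NICD minus control (vertical axis, ± SE), of Cd4 (red diamond) and its 20 protein-coding neighbours on each side in chromosomal order (horizontal axis, not to scale). Filled points were called at an adjusted p under 0.05 (C1ra and C1s2), open points were not, and names with no point were not tested; Gpr162 and Ptms, the nearest tested genes on each side, were at -0.27 and 0.31.

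The genes whose ratios followed Cd4 most closely over the 7 arrays were sought among 7526 genes with values on all of them. The 10 with the highest Pearson correlation were C1ra, Edem1, C1s2, Mybpc3, Neurl4, Slc22a17, Zadh2, Akr1b3, Khdc1a and Tusc3, at 0.993 to 0.998. The search could have found 2 of the 9 other members (Cd8a and Cd3g) and 7 of the other T-cell genes, since the rest lacked a value on some array or were not tested, and none of these was among the 10. The measure rests on the gap between the groups and on PB-NICD 3 lying above the other PB-NICD arrays, and is given as a description.

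Their changes were between -5.72 and -0.63. Neurl4 had ratios of -0.09, 0.77 and 1.60 on the arrays labelled PB-NICD 1 to 3, against 5.09, 4.95, 5.43 and 5.11 on control 1 to 4. Edem1, which helps to remove misfolded glycoproteins from the endoplasmic reticulum, had ratios of 0.04, 0.37 and 0.77 on the PB-NICD arrays in the same order, against 2.04, 2.10, 2.24 and 2.19 on control 1 to 4. In each of these genes, as in Cd4, the order of the PB-NICD arrays put PB-NICD 3 highest.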

How the data were processed

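Prostate RNA of 3 PB-NICD and 4 control samples was hybridised with a universal mouse reference on 7 2-colour arrays without dye swap. Per the file headers, the deposited scanner files were made with Feature Extraction 10.7.3.1 and hold median spot and background intensity in both channels, processed signals and their log10 ratio; the array was annotated on mouse build mm8. The authors' deposited value table, whose processing the sources used here do not state, holds values that correlated at 0.849 to 0.895 with the scanner's log2 ratios. Its column medians were -0.01 to 0; its direction was sample over reference.

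Intensities were background-corrected with normexp (offset 50) and loess-normalized within arrays in limma 3.58.1 (R 4.3.3), with control spots at weight 0, outlier spots missing and spots of a probe averaged. Probes well above background in red on at least 3 arrays, with 2 values in each group, entered 1 two-sided fit with Benjamini-Hochberg adjustment at 0.05. Lists used the brightest tested probe of each gene. Precision is limited by the number of arrays.

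Accessions were matched to RefSeq names (GRCm38.p6), with 16799 probes unnamed. That table was used only for names, chromosomes and gene order. The members and lists were chosen with earlier results of these data known. Named genes were all members, every called gene of each other list or otherwise the 4 with the lowest p, the nearest tested neighbours of Cd4, the 10 genes most correlated with Cd4, and Notch1; exceptions are marked, and 1 gene that this rule names is not reported here. The lowest measurable changes were computed after the data were seen, by setting the red signal of the members' spots to their local background on the PB-NICD arrays. The fit was tested on simulated data. Alternatives covered background, normalization, scaling, filters, slide, replicate number and leaving out arrays. The replicate numbers of the titles were not taken to pair samples. The deviations of same-numbered samples correlated at 0.373, -0.384 and 0.278, and these values followed the slide. Between PB-NICD and control arrays of the same slide the correlation was 0.278 to 0.471, and across slides -0.452 to -0.295. The main fit has no term for slide, and fits with slide are given as alternatives.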

Additional observations from a re-analysis of the deposited data

Results flagged for a closer look

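Among 36 named probes with values on all 4 controls, 3 had 1 control value far from the others, judged by its gap to the nearest value as a share of the range; chance alone does this in about 1 of 20 groups. Cd8a by the dim probe A_52_P150547 was at -0.62 on control 4, against -0.05, 0.03 and 0.01 on the other controls, and it was not well above background there. Cd8a by the 10-spot probe A_52_P443334 was at -0.06 on control 1, with the other controls at -0.04. Cd96 was at 0.01 on control 1, against -0.32, -0.32 and -0.33 on the other controls.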

How the results depend on the processing

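The change of Cd4 kept its direction under all 23 alternatives, between -4.14 (within slide 1) and -3.29 (each array centred on its median), and between -4.12 and -3.40 with 1 array left out. Of the other members 1 alternative gave a call: of 6 tested in the authors' deposited table, 1 was called, Cd8a. Under that alternative, 1981 probes were called higher and 2896 lower of 24843. Leaving out 1 array gave 0 calls among the other members.

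Counts of probes over the array moved far more; beside the 79 higher and 416 lower reported, they were 35 to 639 higher and 166 to 611 lower with 1 array left out, with 639 and 611 without the array labelled PB-NICD 1. They were 817 and 1075 without background subtraction, 615 and 766 from processed signals, 0 and 1 (C1s2) with median centring (1352 probes with an unadjusted p under 0.05), and 1981 and 2896 in the authors' deposited table. They were 232 and 1500 with slide as a fixed block, 161 and 1019 as a random block, 128 and 2266 within slide 1 and 566 and 735 within slide 2. The red channel alone gave 231 lower. The replicate block, on 13649 probes of 6 arrays, gave 20 higher and 97 lower, with Cd4 at -3.67 and a median of -0.27 for other T-cell genes. The causes were not tested. Scaling the mean signal between arrays leaves ratios as they are.

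Called genes of the lists moved as follows. Without background subtraction 1 of 17 other T-cell genes (Lef1, at -0.64) and 1 of 15 macrophage and dendritic genes (C1qa, at 0.92) were called. So were 1 of 10 class II genes and 5 of 32 neighbours of Cd4, beside 817 probes higher and 1075 lower of 21282. Processed signals gave 1 of 17 other T-cell genes (Lef1, at -0.92) and 1 of 8 B-cell and NK-cell genes (Ncr1, at 1.11). These stood beside 615 probes higher and 766 lower of 21282. The authors' deposited table gave 5 of 20 other T-cell genes, with Lef1, Cd6, Tcf7 and Lcp2 lower and Nkg7 higher. It gave 1 of 15 pan-leukocyte genes (higher) and 2 of 17 macrophage and dendritic genes (1 higher, 1 lower). It also gave 3 of 10 B-cell and NK-cell genes (1 higher, 2 lower) and 3 of 10 class II genes (2 higher, 1 lower). Of the neighbours 10 of 34 were called, all lower. These stood beside 1981 probes higher and 2896 lower of 24843. Slide as a block, fixed or random, gave 1 of 10 class II genes and 4 of 32 neighbours. Over 21282 probes the fixed block called 232 higher and 1500 lower, and the random block 161 and 1019. Slide 2 gave 4 of 31 neighbours, beside 566 probes higher and 735 lower of 19645. Median centring gave 1 of 32 neighbours, beside 0 probes higher and 1 lower of 21282. Requiring all 7 arrays above background gave 1 of 28 neighbours, beside 77 probes higher and 483 lower of 14174. Prostate markers had 1 call of 10 without background subtraction, 4 of 11 in the authors' deposited table and 1 of 10 with slide as a fixed block. Without PB-NICD 3 they had 1 of 9, beside 36 probes higher and 339 lower of 16824. Slide 1 holds 1 PB-NICD array, which is assumed to vary like the controls and is the one that stands apart. Its calls describe that array and are left out of these counts. With 1 array left out, counts were 0 to 1 for other T-cell and for macrophage and dendritic genes, 0 for pan-leukocyte, B-cell and NK-cell and class II genes, and 2 for neighbours.

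List medians changed sign or size. For other T-cell genes they were 0.01 (processed signals), 0.09 (median centring) and -0.22 (all 7 arrays above background). For macrophage and dendritic genes they were 0.13 (no subtraction), 0.08 (processed signals), 0.15 (median centring) and 0.08 (authors' deposited table). For B-cell and NK-cell genes they were 0.09 (processed signals), 0.17 (median centring), 0.15 (slide 1) and -0.26 (slide 2). For class II genes they were 0.16 (no subtraction), 0.19 (processed signals), 0.22 (median centring), 0.14 (red alone), 0.22 (authors' deposited table), -0.06 (slide 1) and 0.12 (slide 2). For neighbours they were -0.14 (processed signals), 0.06 (median centring), -0.17 (red alone) and -0.43 (slide 1). The pan-leukocyte median was 0.24 in slide 1. With 1 array left out the medians were -0.18 to -0.03 (other T-cell), -0.11 to 0.11 (pan-leukocyte), -0.17 to -0.01 (macrophage and dendritic), -0.16 to 0.06 (B-cell and NK-cell), -0.04 to 0.07 (class II) and -0.34 to -0.22 (neighbours). Signal over background limits Cd3d, Cd2 and Zap70, and outlier spots limit Cd3e and Cd5.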

Other observations

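Of the 10 genes whose ratios followed Cd4 most closely, 4 lay on the chromosome that carries Cd4 in the RefSeq table (C1ra, C1s2, Edem1 and Akr1b3). That was 40.0% of them, beside 5.11% of the 11823 tested genes other than Cd4, which include these 10. The 10 were sought among 7526 genes with values on all 7 arrays, and the share among those was not computed. Among the 290 genes other than Cd4 called lower, 12 (4.14%) lay on that chromosome, and among the 50 genes called higher, 8 (16%). This look at the chromosome was taken after the values were seen, and no test was made of it. The 10 genes were picked by likeness to Cd4 on the same arrays.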
